A study of Homo sapiens with 6 samples.

Results

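The imprinted region at the tip of the short arm of chromosome 11 (11p15) was described from Hi-C maps of 4 human cancer cell lines through 7 of its genes, H19, IGF2, INS, TH, KCNQ1, CDKN1C and PHLDA2. The genes were listed by name, and every 40-kb bin of chromosome 11 that overlapped one of them was taken as a member bin. There were 16 such bins among the 75 bins from 1 to 4 Mb (hg19) and among 75918 bins on chromosomes 1 to 22 and X. Hi-C counts how often pairs of genomic segments are ligated together in fixed nuclei, so a high value for a pair of bins means that the bins were often near each other. SW480 and SNU-C1 are colon cancer lines, HCC1954 is a breast cancer line and OE33 is an esophageal adenocarcinoma line. The labels name no treatment, and all were cut with MboI in the in situ protocol. SW480 had replicate 1, replicate 2 and a map that pools the 2, and the remaining lines had a single map. As 3 of the 4 lines had a single map, no test between lines was made. Every interval given is a 95% Poisson interval that covers counting error only. It is exact for a single bin pair. For a mean over several bin pairs, the relative limits of the pooled read pairs were applied to the mean O/E. Such an interval is approximate and may be too narrow. The study describes its Hi-C as done in duplicate with biological replicates, but whether the single maps of the other lines pool such replicates is not given in its text. A bin without any value in a map is called unlisted.

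Imprinted genes are expressed mainly from the chromosome of one parent. In the telomeric domain, the IGF2 gene for insulin-like growth factor 2 is expressed from the paternal chromosome and the noncoding RNA H19 from the maternal one, and a control region upstream of H19 binds the insulator protein CTCF on the maternal chromosome. In the centromeric domain, the noncoding RNA KCNQ1OT1 is transcribed on the paternal chromosome from within KCNQ1, and the maternal chromosome expresses KCNQ1, a potassium channel gene, CDKN1C, an inhibitor of the cell cycle, and PHLDA2, a gene that limits placental growth. INS encodes insulin, and TH encodes the enzyme at the rate-limiting step of dopamine synthesis. The maps do not separate the parental chromosomes, so every value is a mixture of both.

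On the telomere side, H19 (2016396 to 2025782, minus strand) lay in the bin that starts at 2.00 Mb. IGF2 (2150342 to 2179621, minus strand) covered the bins at 2.12 and 2.16 Mb. The bin at 2.16 Mb holds the start of IGF2 and also INS (2181009 to 2182451) and TH (2185159 to 2193045), so these 3 genes could not be told apart at this resolution, and it is called the IGF2 promoter bin. The bin at 2.12 Mb holds only the 3′ part of IGF2 and is called the IGF2 3′ bin. On the centromere side, KCNQ1 (2465884 to 2870335, plus strand) spanned 11 bins from 2.44 to 2.88 Mb, CDKN1C (2904443 to 2907005, minus strand) lay in the bin at 2.88 Mb and PHLDA2 (2949503 to 2950650, minus strand) in the bin at 2.92 Mb. Gene coordinates are those of the GRCh37 annotation.

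The control region upstream of H19 is the best known CTCF-bound sequence of the region. Matches to the CTCF motif upstream of H19 are shown because they lie in the H19 bin whose contacts are given below. Which of them belong to the control region was not tested. The core of the CTCF motif, the letters GG, any base and then GGCAG, was searched on both strands in the 6000 bases upstream of the most frequent H19 transcript start (2019072, the start of 7 of 31 annotated transcripts). There were 8 matches on the minus strand and 0 on the plus strand, at 403 to 5177 bases upstream of that start and within the annotated span of H19, with a median spacing of 406 bases. Of 447168 autosomal stretches of 6000 bases, 74.8% held at least 1 match, and 840 (0.188%) held as many as 8 on 1 strand. A match is a run of letters and not a measured binding site. The matches are listed from the one nearest to the start of H19, 5′ to 3′ on the minus strand of chromosome 11 (GRCh37), with the 8-letter core in capitals.
H19 upstream match 1, chr11:2019469-2019496: gtctgagccgtgatGGTGGCAGgaaggg
H19 upstream match 2, chr11:2020269-2020296: ggaaatggccgagaGGCGGCAGtggtga
H19 upstream match 3, chr11:2021192-2021219: ggaagtggccgcgcGGCGGCAGtgcagg
H19 upstream match 4, chr11:2021598-2021625: ggaggtggctgcgcGGCGGCAGtgcagg
H19 upstream match 5, chr11:2022004-2022031: ggaagtggccgcgtGGCGGCAGtgcagg
H19 upstream match 6, chr11:2023437-2023464: aaaagtggccgcgcGGCGGCAGtgcagg
H19 upstream match 7, chr11:2023838-2023865: ggaagtggccgcgcGGCGGCAGtgcagg
H19 upstream match 8, chr11:2024243-2024270: agaagtggccgcgcGGCGGCAGtgcagg

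The same core was frequent across the member bins. They held a median of 34 matches on both strands together (14 to 52), against a median of 10 in autosomal bins and 30 in the 2562 autosomal bins whose GC content lay between the quartiles of the member bins (52.1% and 58.0%). The member bins were rich in G and C, with a median of 55.4% against 39.8% over the autosomes, and held a median of 79 MboI sites against 98.

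The lines differed first in how much of the region could be read. All 16 member bins were listed in SW480 and in OE33. SNU-C1 listed 15 and lacked the IGF2 promoter bin. HCC1954 listed 10 and lacked the H19 bin, both IGF2 bins and 3 bins of KCNQ1. Over the whole window 72 bins of 75 were listed in SW480, 69 in OE33, 57 in SNU-C1 and 39 in HCC1954, while over the autosomes the listed share was 91.9%, 89.2%, 89.4% and 89.0%. The depth within chromosomes ran from 89225969 read pairs in OE33 to 133423691 in SW480.

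Coverage, the read pairs of a bin within chromosome 11 over the median autosomal bin of the same map, was low at the member genes in 3 lines and high in OE33. The H19 bin had a coverage of 0.503 in SW480 (0.507 and 0.498 in the replicates), 0.273 in SNU-C1 and 1.38 in OE33. The IGF2 promoter bin had 0.545 in SW480 (0.530 and 0.559 in the replicates) and 1.42 in OE33. The median over the 11 bins of KCNQ1 was 0.693 in SW480, 0.561 in SNU-C1, 0.235 in HCC1954 with unlisted bins taken as 0, and 1.22 in OE33. OE33 was therefore above the other lines at each of these genes, and HCC1954 was lowest at KCNQ1.
CDKN1C had 0.695, 0.517, 0.242 and 1.5 in SW480, SNU-C1, HCC1954 and OE33. PHLDA2 had 0.550, 0.391, 0.281 and 1.24 in the same order. The order of the lines was the same at both genes, and the replicates of SW480 differed by far less than the lines did.
GC content was related to coverage differently in the lines. Over autosomal bins the correlation of GC content and coverage was -0.12, -0.21, -0.13 and 0.16 in SW480, SNU-C1, HCC1954 and OE33. Autosomal bins of at least 50% GC had a median coverage of 0.763, 0.578, 0.589 and 1.12 in that order, and 1.57%, 8.83%, 11.3% and 2.61% of them were unlisted. The bins share libraries and sequence context, and the part of base composition in the coverage of the member genes was not tested.

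**Figure D1:**
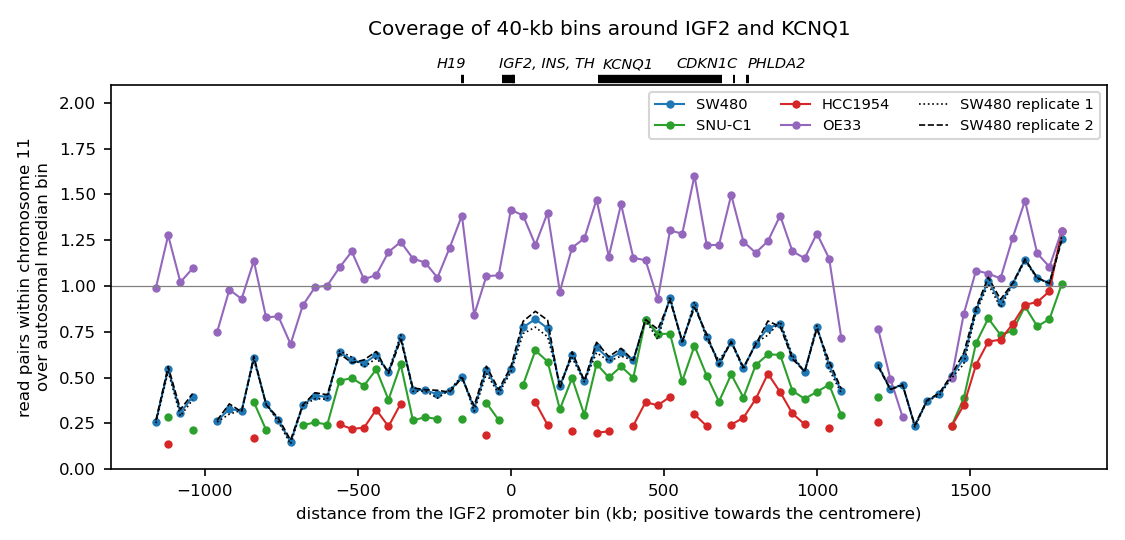
Coverage of each 40-kb bin of the window (vertical axis, read pairs within chromosome 11 over the autosomal median bin) against its distance from the IGF2 promoter bin in kb, 1 coloured line per cell line and dotted or dashed black lines for the SW480 replicates, with gaps at unlisted bins and black bars for the member genes. OE33 stays above 1 at H19 (1.38) and CDKN1C (1.5), HCC1954 has single points near 0.2 to 0.4 over KCNQ1, and the 2 replicates of SW480 nearly coincide.

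Contacts are given as O/E, the value of a bin pair over the mean of all usable pairs that lie equally far apart in that map. In the map of SW480 and in that of OE33, H19, IGF2, INS and TH formed a square of raised contact with the 400 kb on their telomere side, and KCNQ1, CDKN1C and PHLDA2 formed another. Contact within the H19 to TH bins was 1.83 in SW480 (1078 read pairs), 1.78 in SNU-C1 (217 read pairs over the 3 bins listed of 5) and 2.17 in OE33 (2196 read pairs). Contact within the KCNQ1 to PHLDA2 bins was 1.84, 1.68, 2.20 and 1.94 in SW480, SNU-C1, HCC1954 and OE33. Both groups of genes were thus above the expected value in every line in which they could be read.

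**Figure D2:**
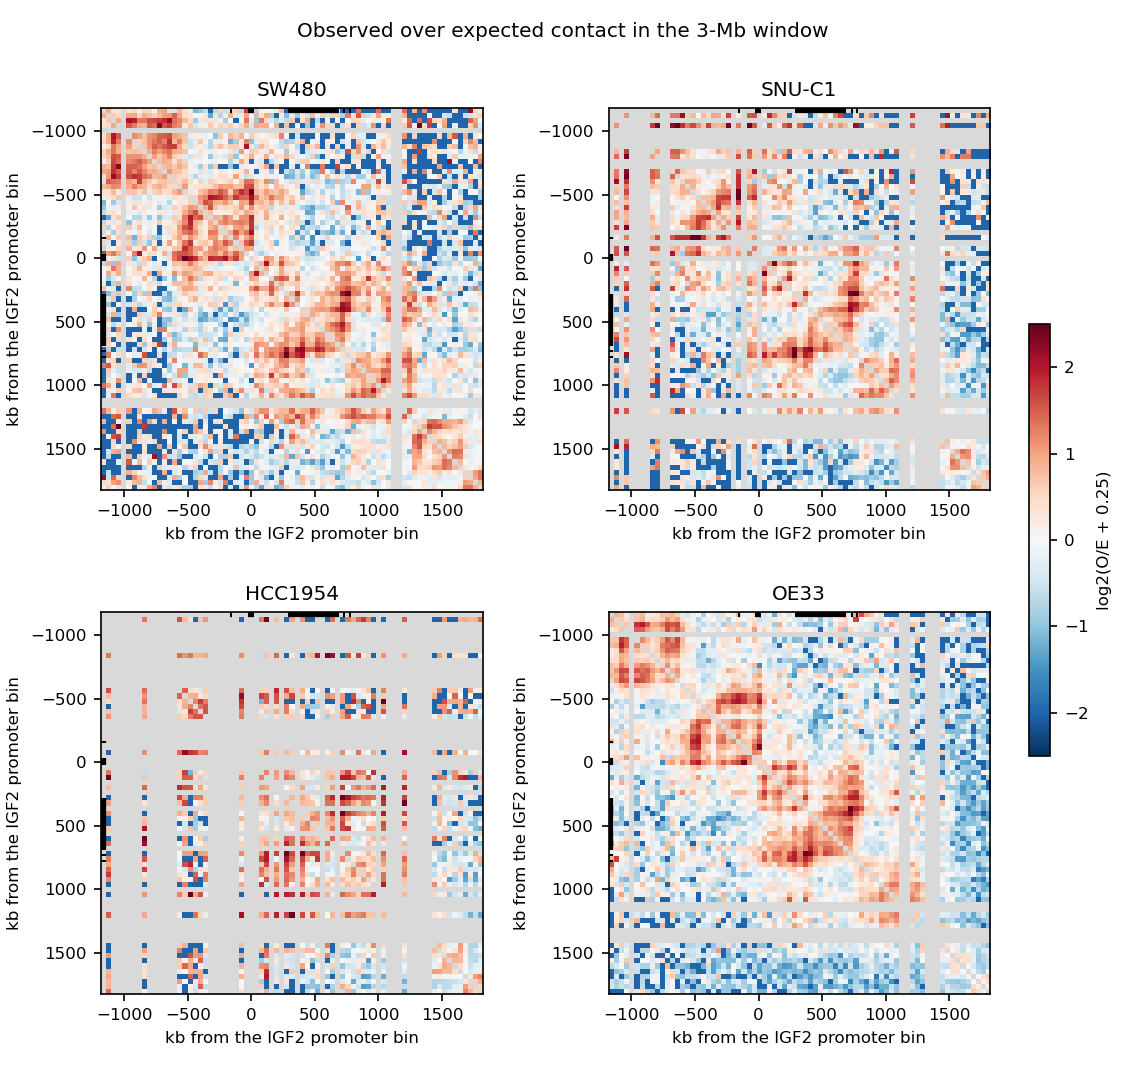
Heat maps of log2(O/E + 0.25) for all bin pairs of the window in the 4 lines, both axes in kb from the IGF2 promoter bin, with member genes as black bars along the edges and unlisted bins in grey. In SW480 and OE33 a red square ends at position 0 and another red block lies between the start of KCNQ1 and PHLDA2, while most of the map of HCC1954 is grey (39 of 75 bins listed).

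Contact between the 2 domains, the H19 to TH bins with the KCNQ1 to PHLDA2 bins, was below the expected value in SW480 and OE33 and near it in the other lines. It was 0.641 in SW480 (490 read pairs, interval 0.585 to 0.70), and 0.640 and 0.639 in its replicates. It was 0.774 in OE33 (923 read pairs, 0.725 to 0.826), 1.04 in SNU-C1 (285 read pairs, 0.918 to 1.16) and 1.18 in HCC1954 (31 read pairs, 0.803 to 1.68). The HCC1954 value rests on 1 of the 5 bins from H19 to TH, the bin at 2.08 Mb between H19 and IGF2. Without iterative correction the values were 0.301, 0.878, 0.334 and 0.172 in SW480, OE33, SNU-C1 and HCC1954, which puts all 4 lines below the expected value and OE33 highest. Uncorrected values also carry the coverage of the bins, and the part of coverage in them was not tested.
On the log2 scale, contact between the domains over contact within them was -1.52 in SW480, -1.41 in OE33 and -0.74 in SNU-C1. Without iterative correction these were -1.41, -1.28 and -0.70 in the same order. With the bins cut to those listed in SW480, SNU-C1 and OE33 alike, the contact between the domains was 0.657 in SW480 (0.584 to 0.737), 1.04 in SNU-C1 (0.918 to 1.16) and 0.726 in OE33 (0.662 to 0.794). The interval of SNU-C1 did not overlap those of SW480 and OE33 on the same bins. As these values are means over several bin pairs, the intervals may be too narrow. SNU-C1 and HCC1954 also had lower coverage over these bins and a share of read pairs with other chromosomes above the autosomal median (25.4% and 35.4% against 14.2% and 17.5%), and the part of either in the difference was not tested.
On the 10 bin pairs listed in all 4 maps, which join the bin at 2.08 Mb with KCNQ1 to PHLDA2, the values were 0.559 in SW480 (0.441 to 0.70), 0.751 in OE33 (0.629 to 0.889), 1.18 in HCC1954 (0.803 to 1.68) and 1.28 in SNU-C1 (1.05 to 1.55). The order was the same as on the wider sets for SW480 and OE33, and the intervals of HCC1954 and SNU-C1 overlapped each other.

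Across gene pairs, H19 and IGF2 met more often than expected. Their O/E was 1.99 in SW480 (148 read pairs, 1.68 to 2.34), with 2.19 and 1.79 in the replicates, 2.48 in OE33 (365 read pairs, 2.23 to 2.74) and 1.85 in SNU-C1 (30 read pairs, 1.25 to 2.64), where only the IGF2 3′ bin was listed. H19 with KCNQ1 lay below the expected value in all 3 lines that listed H19, at 0.662 in SW480 (0.526 to 0.823), 0.478 in SNU-C1 (0.320 to 0.687) and 0.597 in OE33 (0.492 to 0.718). IGF2 with KCNQ1 was 0.706 in SW480 (0.617 to 0.804), 0.838 in OE33 (0.762 to 0.920) and 1.18 in SNU-C1 (0.962 to 1.44). The higher contact between the domains in SNU-C1 was thus seen at the IGF2 3′ bin and at the bin at 2.08 Mb, while the intervals of H19 with KCNQ1 overlapped among the 3 lines. The SNU-C1 value of IGF2 rests on the IGF2 3′ bin alone, with 100 read pairs.
The bin of the start of IGF2, which is also that of INS and TH, had 0.803 with KCNQ1 in SW480 (0.677 to 0.946) and 0.967 in OE33 (0.861 to 1.08).

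The IGF2 promoter bin contacted its telomere side far more than its centromere side. Within 1 Mb its O/E in SW480 was 2.15 towards the telomere and 0.899 towards the centromere, a log2 difference of -1.26 (-1.21 and -1.30 in the replicates). In OE33 the values were 1.86 and 1.04, a log2 difference of -0.84. The promoter profile could be read only in these 2 lines. The IGF2 3′ bin leaned the same way, with a log2 difference of -1.47 in SW480, -0.65 in SNU-C1 and -0.94 in OE33.
The H19 bin leaned to the telomere in all 3 lines and by very different amounts, with -0.39 in SW480 (-0.30 and -0.48 in the replicates), -0.75 in OE33 and -2.13 in SNU-C1. In SNU-C1 the H19 bin had an O/E of 3.01 towards the telomere on 508 read pairs and 0.688 towards the centromere on 177.

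The profile of the IGF2 promoter bin had high values far from the gene in both lines. Among the partners at least 400 kb away, the bin at 1.64 Mb, 520 kb towards the telomere and home to the keratin-associated protein genes KRTAP5-4 and KRTAP5-5, had the highest mean O/E of the 2 lines. The O/E was 5.91 in SW480 (77 read pairs, 4.67 to 7.39), with 6.28 and 5.52 in the replicates, and 3.10 in OE33 (78 read pairs, 2.45 to 3.87). Of autosomal bin pairs at this distance, 0.0418% in SW480 and 0.839% in OE33 had at least this value. The bin was picked as the highest of 50 partners on these same values, so the shares only describe it. The intervals of SW480 and OE33 did not overlap for this contact of the IGF2 promoter bin.
The bin at 1.68 Mb, which holds KRTAP5-6, came next with 4.12 in SW480 (3.12 to 5.33) and 3.76 in OE33 (3.0 to 4.67), and the bin at 1.72 Mb, which holds IFITM10, followed with 3.28 in SW480 and 2.12 in OE33. At 1.68 and 1.72 Mb SW480 was again above OE33, with intervals that overlapped. Nearer to the gene, the bin at 2.04 Mb between H19 and IGF2 had 3.11 in SW480 (2.49 to 3.83) and 4.84 in OE33 (4.29 to 5.44), the reverse order of that at 1.64 Mb. This was the highest value of the IGF2 promoter bin in OE33, while that at 1.64 Mb was the highest in SW480. The H19 bin itself had 2.29 in SW480 and 2.92 in OE33.
Towards the centromere the IGF2 promoter bin had 1.95 in SW480 and 1.87 in OE33 at CD81, TSSC4 and TRPM5 in the bin at 2.40 Mb, 1.91 and 1.81 at ASCL2, a transcription factor gene in the bin at 2.28 Mb, and 1.29 and 1.84 at the start of KCNQ1. It then fell below the expected value over the part of KCNQ1 from 2.56 to 2.72 Mb, which lies around KCNQ1OT1, with O/E of 0.415 to 0.657 in both lines. Over 68 partners the O/E profiles of SW480 and OE33 had a correlation of 0.80, and those of the SW480 replicates 0.82 over 71 partners. The partners share the anchor bin and neighbouring sequence, so this is a description.

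**Figure D3:**
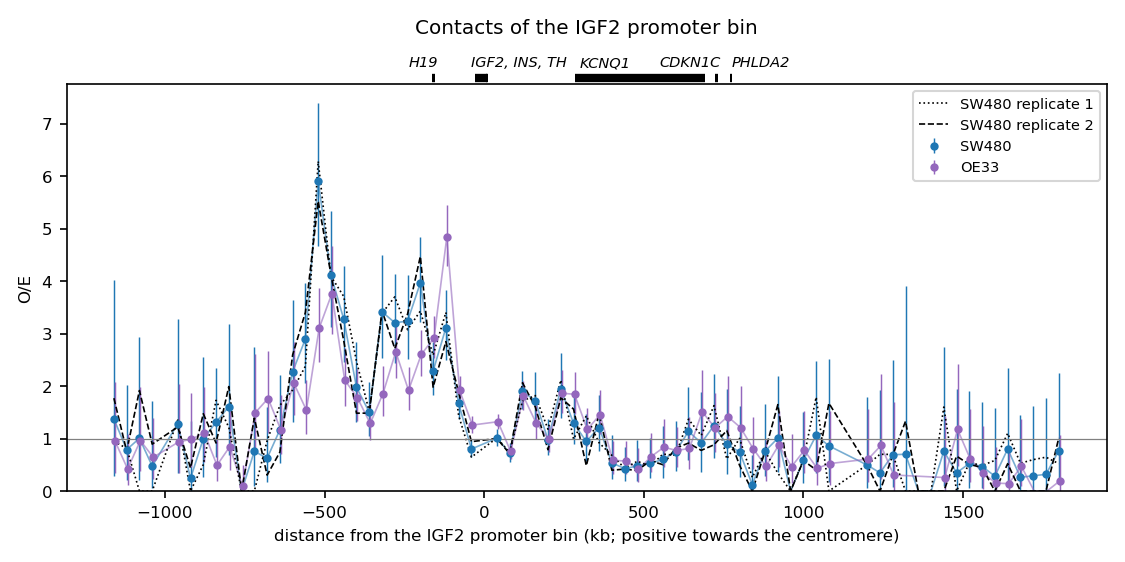
O/E of the IGF2 promoter bin (vertical axis) with each bin of the window against the distance in kb, positive towards the centromere, for SW480 and OE33 with exact 95% Poisson intervals as bars and the SW480 replicates as black lines; member genes are marked on top. The highest point is SW480 at 520 kb towards the telomere (5.91), OE33 is highest at 120 kb on that side (4.84), and both lines lie under 1 around 400 to 520 kb.

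The bins whose profiles were most like that of the IGF2 promoter bin, by the correlation of O/E over the window averaged over SW480 and OE33 and ranked among 68 bins, were those at 1.68 Mb (0.80 and 0.79), 2.08 Mb (0.80 and 0.72) and 2.04 Mb (0.68 and 0.84). The first adjoins the highest far partner of the IGF2 promoter bin in SW480 and the others lie between H19 and IGF2. The partners with the highest ratio between SW480 and OE33 were the bins at 3.12 Mb (OSBPL5), 3 Mb (NAP1L4 and CARS1) and 3.8 Mb (NUP98 and PGAP2), each on 12 read pairs or fewer, so none was measured well enough to order the lines. For NAP1L4 and CARS1 the O/E was 0.122 in SW480 on 1 read pair and 0.804 in OE33 on 12.

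The H19 bin had the same far partners in part of the lines, a comparison made after its values had been seen. With the bin at 1.64 Mb (KRTAP5-4 and KRTAP5-5), the O/E of the H19 bin was 1.25 in SW480 (25 read pairs, 0.811 to 1.85), 1.26 and 1.24 in its replicates, 6.07 in SNU-C1 (70 read pairs, 4.73 to 7.67) and 3.51 in OE33 (135 read pairs, 2.94 to 4.15). With the bin at 1.68 Mb (KRTAP5-6), the H19 bin had 1.93 in SW480 (1.39 to 2.60), 6.91 in SNU-C1 (5.47 to 8.61) and 3.89 in OE33 (3.26 to 4.61). The 3 lines did not overlap at either partner, and SNU-C1 was highest at both. In SW480 the bin at 1.64 Mb thus met the IGF2 promoter bin (5.91) more than the H19 bin (1.25), and in OE33 the values were 3.10 and 3.51, with overlapping intervals. The H19 bin was thinly covered in SNU-C1 (0.273), and the part of that in its O/E was not tested. The IGF2 3′ bin had 2.73 in SW480, 2.41 in SNU-C1 and 2.16 in OE33 with the bin at 1.64 Mb, a narrower spread than that of the H19 bin.

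Insulation was measured as the log2 of the mean contact in the square that joins 1 Mb on each side of a bin, over the autosomal mean, so a low score means little contact across the bin. Between TH and KCNQ1 the lowest score was in the IGF2 promoter bin in SW480 (-0.38, and -0.39 and -0.38 in the replicates) and in OE33 (-0.44). In SNU-C1 the lowest score was -0.17 at 2.20 Mb, and of autosomal bins 22.4%, 27.8% and 38.8% had a score at or below these values in SW480, OE33 and SNU-C1. In HCC1954 the score could be formed in 41 of 75 window bins and not at the IGF2 promoter bin. Its lowest score between TH and KCNQ1 was 0.45 at the start of KCNQ1, with 85.4% of autosomal bins at or below it, and it turned to -0.19 with a square of 480 kb, where the lowest bin was the IGF2 promoter bin, and to -0.033 with one of 200 kb.
A boundary is a local minimum of the score. With the 1-Mb square, 1 of the 16 member bins lay on a boundary in each of SW480, OE33 and SNU-C1 and 0 in HCC1954. The shares of autosomal bins were 4.29%, 3.97%, 4.41% and 4.27% in these lines. Boundaries numbered 3 of 75 scored window bins in SW480 and in OE33, 2 of 75 in SNU-C1 and 1 of 41 in HCC1954. In HCC1954 the H19 bin and both IGF2 bins had no score. The member bin on a boundary was the IGF2 promoter bin in SW480 and OE33, and it was also a boundary in both SW480 replicates. Its strength was 0.857 in SW480 and 0.775 in OE33. Strength is the highest minus the lowest slope of the score around the minimum. A slope is the difference of the mean scores over 200 kb on each side. In SNU-C1 the member bin on a boundary was the neighbouring IGF2 3′ bin with a strength of 1.25. The IGF2 promoter bin has no values of its own in SNU-C1, and the part of that in the shift by 1 bin was not tested.
With the 200-kb square, 3 of the 16 member bins lay on a boundary in each of SW480, OE33 and SNU-C1 and 1 in HCC1954. The shares of autosomal bins were 7.31%, 6.87%, 7.42% and 7.36% in these lines. Boundaries numbered 6 of 75 scored window bins in SW480, 5 of 72 in OE33, 5 of 54 in SNU-C1 and 2 of 27 in HCC1954. The H19 and IGF2 bins again had no score in HCC1954. The PHLDA2 bin was a boundary in all 4 lines and in both replicates of SW480. Its score was -0.80, -1.07, -0.19 and -0.74 in SW480, SNU-C1, HCC1954 and OE33, and its strength was 2.07, 2.77, 1.90 and 2.47 against median strengths of 1.16, 1.16, 1.23 and 1.17. At 1 Mb the PHLDA2 bin was no boundary in the maps of the 4 lines, although replicate 2 of SW480 had one there (strength 0.465).
The IGF2 promoter bin was a boundary at 200 kb in SW480 (-0.58) and OE33 (-0.31), and the IGF2 3′ bin in SNU-C1 (-0.27). The strengths were 0.841, 0.705 and 1.66, below the median strength in SW480 and OE33 and above it in SNU-C1. Another boundary, inside KCNQ1 at 2.52 Mb, was found in SW480, SNU-C1 and OE33 and in replicate 1 of SW480, while replicate 2 had it at 2.44 Mb. The bin at 1.64 Mb was itself a boundary at 200 kb in SW480, SNU-C1 and OE33, with strengths of 2.11, 1.97 and 2.65. With the 200-kb square, boundaries therefore flanked the contact domain of H19 and IGF2 on both sides in these 3 lines. With the 1-Mb square, SNU-C1 had no boundary on the telomere side of this domain within the window.

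**Figure D4:**
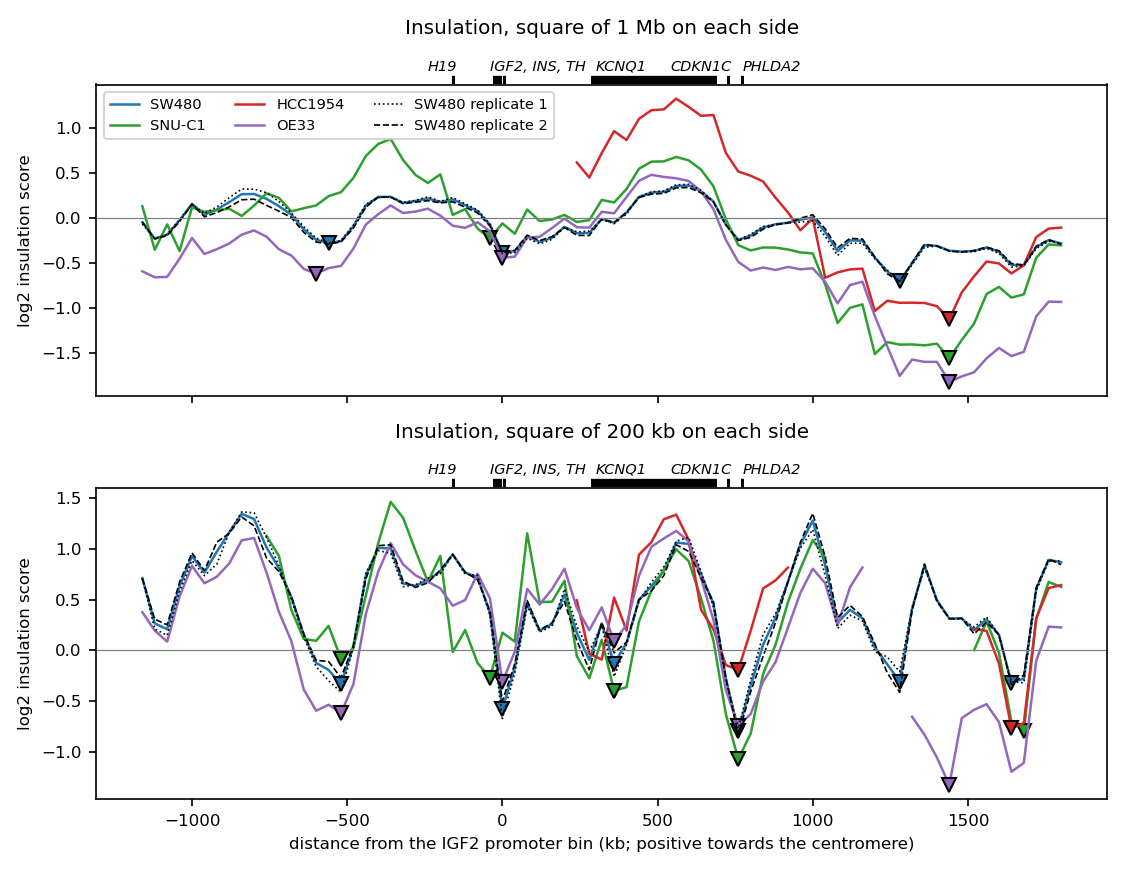
Log2 insulation score (vertical axis) of each bin of the window with a square of 1 Mb (upper panel) and 200 kb (lower panel) against the distance from the IGF2 promoter bin in kb, with a coloured line per cell line, black lines for the SW480 replicates and triangles for boundaries. SW480 and OE33 have a triangle at 0 kb in both panels (-0.38 and -0.44 in the upper one), and all 4 lines have one at the PHLDA2 bin in the lower panel.

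The centromeric domain was the part of the region that could be read in all 4 lines, and its strongest contacts joined the first part of KCNQ1 with CDKN1C and PHLDA2. KCNQ1 with CDKN1C had an O/E of 2.94 in SW480 (2.78 to 3.10), 2.71 in SNU-C1 (2.53 to 2.90), 3.68 in HCC1954 (3.19 to 4.23, on 8 of 11 bins) and 2.83 in OE33 (2.70 to 2.96). KCNQ1 with PHLDA2 had 2.25, 2.00, 2.17 and 1.86 in the same order. CDKN1C with its neighbour PHLDA2 had only 1.11 in SW480 (0.943 to 1.31), 1.37 in SNU-C1, 1.12 in OE33 and 2.04 in HCC1954 (1.61 to 2.54). HCC1954 was the highest line for both contacts of CDKN1C and had the fewest read pairs behind them, 197 and 78.
The contact was spread over the first part of KCNQ1. The KCNQ1 start bin, 440 kb from CDKN1C, had an O/E with the CDKN1C bin of 3.97 in SW480 (73 read pairs, 3.11 to 4.99), 4.98 in SNU-C1 (72 read pairs, 3.90 to 6.27), 6.65 in HCC1954 (22 read pairs, 4.17 to 10.1) and 3.58 in OE33 (115 read pairs, 2.96 to 4.30). With the PHLDA2 bin the KCNQ1 start bin had 5.21, 5.71, 4.0 and 3.53 in SW480, SNU-C1, HCC1954 and OE33. The KCNQ1 bin at 2.56 Mb, chosen after its values had been seen, had with the CDKN1C bin 4.42 in SW480 (3.58 to 5.40), 4.68 in SNU-C1 (3.68 to 5.87), 8.89 in HCC1954 (42 read pairs, 6.41 to 12) and 4.59 in OE33 (3.93 to 5.32).
The 95th percentile of autosomal bin pairs at the distances of the KCNQ1 start bin from CDKN1C and PHLDA2 was 2.02 to 2.13. Both contacts of the KCNQ1 start bin had a value above it in every line. In HCC1954 the contact with PHLDA2 rests on 13 read pairs (2.13 to 6.84). There the KCNQ1 start bin (coverage 0.199), the bin at 2.56 Mb (0.237) and the CDKN1C bin (0.242) lay below 0.25 of the median coverage. Bins below that limit in any line were left out of the expected value. The part of low coverage in these HCC1954 values was not tested.

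The contact fell from the start to the end of KCNQ1. The 4 bins before KCNQ1OT1 had an O/E with CDKN1C of 3.65, 4.0, 6.15 and 3.89 in SW480, SNU-C1, HCC1954 and OE33. The 4 bins of KCNQ1OT1 (2618538 to 2721233, minus strand), whose start lies inside the imprinting control region of this domain, had 2.99, 2.40, 2.79 and 2.5, and the bins after it had 1.90, 1.41, 1.33 and 1.84. In HCC1954 these values rest on 3 of the 4 bins before KCNQ1OT1, 3 of its 4 bins and 2 of the 3 bins after it. The order along the gene was the same in all 4 lines although the last bins lie nearest to CDKN1C, since O/E takes distance into account. With PHLDA2 the same order was seen in all 4 lines, with 3.77, 1.62 and 1.05 along the gene in SW480. The bins of KCNQ1OT1 had the lowest contact with the H19 to TH bins of the parts of KCNQ1 in SW480 (0.446, 0.366 to 0.538, against 0.717 before and 0.797 after) and OE33 (0.555, 0.476 to 0.644, against 0.836 and 0.838), with intervals that did not overlap those of the other parts. In SNU-C1 it was 0.754 (0.596 to 0.940), and the interval overlapped those of the part before it (0.894, 0.742 to 1.07) and after it (1.22, 0.909 to 1.61). In HCC1954 the 3 parts had 1.21, 1.13 and 1.07 along the gene, on 11, 12 and 4 read pairs. The intervals of the parts belong to means over several bin pairs and may be too narrow.
Each gene of the domain leaned inwards. Within 1 Mb the KCNQ1 start bin leaned to the centromere by a log2 difference of 1.10, 0.89, 0.65 and 0.85 in SW480, SNU-C1, HCC1954 and OE33. The CDKN1C bin leaned to the telomere by -1.56, -1.98, -1.86 and -1.88 in the same order, and the PHLDA2 bin by -0.70, -1.32, -1.02 and -1.28. The sign was the same in all 4 lines and in both SW480 replicates for each of the 3 bins. Within 400 kb the KCNQ1 start bin leaned less, by 0.53, 0.27, 0.065 and 0.33 in the same order. The PHLDA2 bin had -0.43, -0.68, -0.45 and -0.68 at this reach, and the CDKN1C bin -2.0, -1.92, -1.28 and -2.02.

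**Figure D5:**
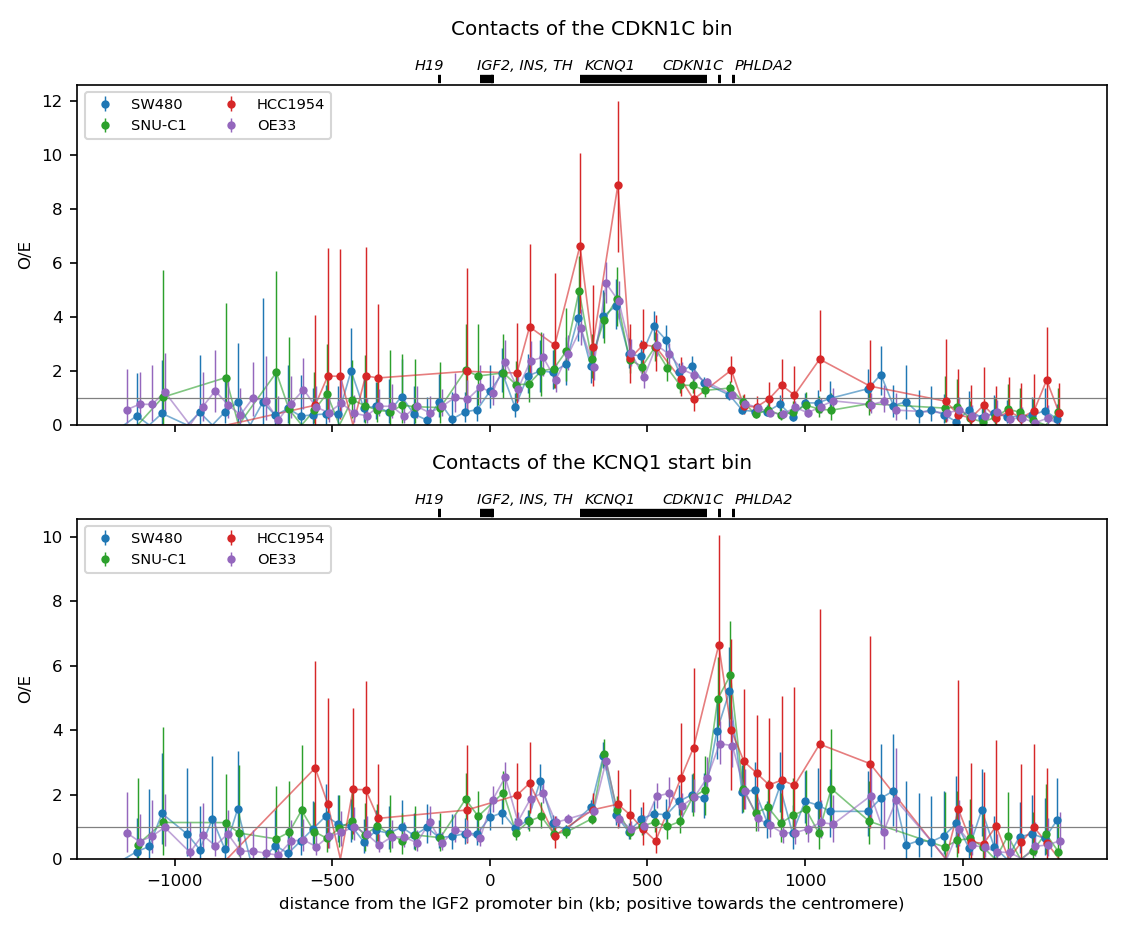
O/E of the CDKN1C bin (upper panel) and of the KCNQ1 start bin (lower panel) with each bin of the window against the distance from the IGF2 promoter bin in kb, with exact 95% Poisson intervals as bars and 1 colour per line. All 4 lines peak between the start of KCNQ1 and 2.56 Mb in the upper panel, where HCC1954 reaches 8.89, and at CDKN1C and PHLDA2 in the lower panel.

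Around the genes, the H19 to TH bins with the 400 kb on their telomere side had an O/E of 2.13, 2.25, 2.87 and 1.81 in SW480, SNU-C1, HCC1954 and OE33. With the bins between TH and KCNQ1 they had 0.863, 1.09, 1.60 and 0.996. The KCNQ1 to PHLDA2 bins had 1.18, 1.10, 1.5 and 1.41 with the bins between TH and KCNQ1, and 1.03, 0.842, 1.47 and 0.855 with the 400 kb on their centromere side. In HCC1954 these flanking values were all above the expected value, on 6, 3, 30 and 60 bin pairs.

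The window was then searched for bin pairs in which 1 line stood apart. Pairs of bins listed in all 4 maps and 80 kb to 3 Mb apart were used. Around each pair, observed and expected values were each summed over 3 by 3 bins. The O/E was the ratio of these sums, and 0.25 was added to it. A line was called above when its value reached 2 times the highest value among the remaining 3. It was called below when the lowest of the other 3 was at least 2 times its value. Of 715 such pairs in the window, 28 (3.92%) were above in HCC1954, against 0.163% of 4394034 pairs over the genome. SNU-C1 was above in 4 (0.559%, against 0.205%), and SW480 and OE33 were above in 0 (against 0.136% and 0.268%). SW480 was below in 3 pairs (against 0.171%), SNU-C1 in 3 (against 0.243%), HCC1954 in 2 (against 0.336%) and OE33 in 3 (against 0.642%).
Of the 28 pairs above in HCC1954, 9 held a member bin, 0 joined member bins with each other, 22 lay at least 1 Mb apart and 5 joined KCNQ1 to PHLDA2 with the bins on their centromere side. Of the 715 tested pairs, 328 (45.9%) held a member bin, 39 (5.45%) joined member bins, 311 (43.5%) lay at least 1 Mb apart and 169 (23.6%) joined KCNQ1 to PHLDA2 with the centromere side. The sums of neighbouring pairs overlap, and the 28 pairs held 23 distinct sets of values, so they are not 28 separate contacts. They rested on 4 to 31 read pairs each (median 15) and had O/E of 1.30 to 4.69. HCC1954 had the highest mean O/E over the 715 pairs, 1.19, against 0.945 in SW480, 0.826 in SNU-C1 and 0.690 in OE33, and the fewest read pairs, 8.46 per bin pair. After each O/E was divided by the mean of its line, 9 of the pairs (1.26%) were above in HCC1954, 7 (0.979%) above in SNU-C1 and 6 (0.839%) below in SW480. The share over the genome was not computed for this setting. With only bins that reached 0.25 of the median coverage in each of the 4 lines, 6 of 217 pairs were (2.76%, against 0.123% over the genome). The part of low coverage in these calls was not tested beyond these counts.

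Compartments were read from the first eigenvector of the correlation of 200-kb blocks on chromosome 11, with its sign set towards gene starts, so positive values mark the gene-rich, active compartment. Every block with a member gene was positive in every line that had a value, and so was every other scored block of the window, 15 in SW480, 15 in OE33, 14 in SNU-C1 and 9 in HCC1954 with the member blocks included. Over chromosome 11, 50%, 45.0%, 45.1% and 59.8% of blocks were positive in these lines. The block of H19, IGF2, INS and TH had 0.748 in SW480 (0.612 and 0.687 in the replicates), 0.507 in SNU-C1 and 0.747 in OE33. The first block of KCNQ1 had 0.556, 0.549, 0.208 and 0.775 in SW480, SNU-C1, HCC1954 and OE33. The middle block of KCNQ1, from 2.6 to 2.8 Mb with KCNQ1OT1, was the lowest member block in all 4 lines, at 0.267, 0.348, 0.0351 and 0.70. The block of the end of KCNQ1, CDKN1C and PHLDA2 had 0.662, 0.489, 0.264 and 0.836. The eigenvector took 27.6%, 18.3%, 10.4% and 27.9% of the variance in these lines, so the values of HCC1954 are the least certain, and levels are read within a line.

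Contacts with other chromosomes could be read in SNU-C1, HCC1954 and OE33 but not in SW480, whose map held 0.263% of its read pairs between chromosomes. The member bins sent a median of 25.4% of their read pairs to other chromosomes in SNU-C1 (autosomal median 14.2%) and 35.4% in HCC1954 (autosomal median 17.5%), but 34.2% in OE33 (autosomal median 34.0%). At or below these medians were 97.4%, 97.2% and 50.5% of autosomal bins in SNU-C1, HCC1954 and OE33. The medians over the whole window were 24.7%, 35.6% and 39.98% in SNU-C1, HCC1954 and OE33. Block values were formed with all listed bins of the window and not with the member bins alone. The 1-Mb block with the highest O/E with the window was on chromosome 21 (45 to 46 Mb) in SNU-C1, at 6.73 on 48 read pairs (4.92 to 8.84). In HCC1954 it was on chromosome 17 (37 to 38 Mb), at 7.37 on 208 read pairs (6.40 to 8.44). The highest block of OE33, on chromosome 8 (144 to 145 Mb), had 4.40 on 242 read pairs (3.87 to 4.99). The 99th percentiles over the blocks were 4.33, 4.78 and 3.24 in SNU-C1, HCC1954 and OE33. The named blocks were picked as the highest of 2635, 2647 and 2632 in these lines, so they exceed the percentiles by choice.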

How the data were processed

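After MboI digestion and sequencing, the authors used BWA-MEM for alignment to hg19, Picard for duplicates, their own pipelines for the matrices and iterative correction for normalization. The sources used here give no tool versions, read filters or rule for leaving out bins. Deposited values are a signal, that is, the contact frequency after correction for each pair of 40-kb bins. Correction was genome-wide except in SW480, which was corrected per chromosome. The part of this in the differences between SW480 and the other lines was not tested. The SW480 map without a number equals the sum of its replicates in 1434352 of 1434998 bin pairs of chromosome 11 (99.95%), so it was used for SW480 and the replicates as its spread.

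Factors per bin were recovered by fitting, and 100% of the tested values on chromosome 11 gave whole read pairs within 0.02. Read pairs gave coverage and intervals. Depth within chromosomes was 133423691 read pairs in SW480, 89225969 in OE33, 115052880 in SNU-C1 and 93370811 in HCC1954. The expected value was the mean over pairs of the 64931 bins that reached 0.25 of the median coverage in each of the 4 lines. An insulation score needed a share of at least 0.25 of the bin pairs of its square. A boundary was the lowest bin within 200 kb of a change of sign in the slope, with a strength of at least 0.1.

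Partners of the IGF2 promoter bin were named by rule, the 3 with the highest mean O/E and the 3 with the highest ratio between lines at least 400 kb away, and the 3 most alike profiles. Members and lists were chosen with earlier results of these data known. The recovery of read pairs, the calls of bin pairs that differ in 1 line and the boundaries were tested on simulated data. The other steps were not. The simulated calls used another stretch of chromosome 11, and the simulated boundaries a map without unlisted bins. Error rates at the coverage and with the unlisted bins of this window were therefore not tested. Sequences came from GRCh37, whose chromosome lengths match the bins, and genes from a GENCODE annotation of that build. The software was samtools 1.23.1 and Python 3.11.15 with numba 0.67.0, pandas 2.3.3, SciPy 1.17.1, matplotlib 3.10.9 and NumPy 2.4.6.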

Additional observations from a re-analysis of the deposited data

How the results depend on the processing

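The SW480 replicates have no numbered partner in another line. No paired analysis was possible because no other group has replicate numbers. There were 23 results under 85 alternative settings. Of these, 38 left the result the same, 45 moved it and 2 changed its sign. A result counted as moved when it shifted by more than the replicate spread or counting interval. For the numbers of bin pairs that differ in 1 line, a fixed ratio of counts was the limit instead. The SW480 spread between replicates is small (n = 2), so small shifts count as moved there. Choices of bins listed in common, of O/E in the insulation square, of the coverage limit and of the window mean were made after seeing the data. Bins that are unlisted, read pairs per bin pair and 1 map per line limit what can be read in SNU-C1 and HCC1954, and the cause of each shift below was not tested.

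Contact between the domains without iterative correction was 0.301, 0.334, 0.172 and 0.878 in SW480, SNU-C1, HCC1954 and OE33, so SNU-C1 and HCC1954 are near the expected value only after correction. In SW480 it was 0.608 with the expected value from chromosome 11, 0.602 with domains widened by 1 bin, 0.657 and 0.559 on bins listed in 3 and in 4 maps, and 0.639 to 0.640 without replicate 1 or 2. In SNU-C1 it was 1.28 on bins listed in all 4 maps. Over contact within the domains (log2), SW480 had -1.46 with the expected value from chromosome 11, -1.41 without correction, -1.64 with widened domains and -1.76 without pairs under 3 bins apart, and OE33 had -1.28 without correction and -1.75 without those pairs. SNU-C1 had -0.70 without correction. The directional bias of the IGF2 promoter bin in SW480 was -1.04 with 400 kb on each side. Member coverage over the chromosome 11 median was 0.583, 0.537, 0.246 and 1.17 in SW480, SNU-C1, HCC1954 and OE33, against 0.652, 0.505, 0.220 and 1.26, and on bins listed in all 4 maps 0.709, 0.546 and 0.261 in the first 3. The lowest insulation score between TH and KCNQ1 with squares of 480 and 200 kb was -0.36 and -0.58 in SW480, -0.31 and -0.27 in SNU-C1 and -0.37 and -0.31 in OE33. In HCC1954 it was -0.19 and -0.033, which reverses the sign of 0.45. As O/E it was -0.41 in SW480, and without replicate 1 or 2 it was -0.38 to -0.39.

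Pairs above in HCC1954 numbered 28 of 715 (3.92%, against 0.163% over the genome), 5 at 3 times (0.699%, against 0.0148%), 7 with 1 added (0.979%, against 0.0266%), 6 of 217 with the coverage limit (2.76%, against 0.123%) and 9 with O/E over the window mean. Of the other calls at 3 times, SW480 was below in 1 (0.14%, against 0.0103%). SNU-C1 was above in 1 (0.14%, against 0.0186%) and HCC1954 below in 2 (0.28%, against 0.0224%). With 1 added, the other call was SNU-C1 above (0.14%, against 0.0273%). With the coverage limit there were 0 other calls. With sums over 5 by 5 bins, SW480 was below in 1 (0.14%, against 0.0799%) and SNU-C1 in 2 (0.28%, against 0.0841%). OE33 was below in 1 (0.14%, against 0.213%). Over the window mean the other calls numbered 20, without a share over the genome, against 15 in the main setting. The IGF2 promoter contact at 1.64 Mb in SW480 was 4.31 as a mean with its neighbouring bins. The compartment value without replicate 1 or 2 was 0.612 to 0.687 for the H19 block and 0.514 to 0.629 for the CDKN1C block in SW480.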
